A study of Homo sapiens with 6 samples.

Results

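The zinc handling genes described here were the zinc importers of the SLC39A family (ZIP proteins), the zinc exporters of the SLC30A family (ZNT proteins), the metallothioneins and MTF1. They were taken by name from the rows of the count tables, and 1 row described as a pseudogene, MT1L, was left out. The rule found 36 genes among 50868, of which 14 were SLC39A genes, 10 SLC30A genes, 11 metallothioneins and 1 was MTF1. RNA was sequenced from DU145 cells, a human prostate cancer line that grows without androgen. In 3 libraries (siRCC2) RCC2 had been knocked down by siRNA, and in the other 3 (siCtrl) the cells had a control siRNA and are labelled as wild type for RCC2. RCC2 encodes a chromatin and centromere protein. No source used here gives the siRNA sequences, dose or time after transfection, and nothing states that libraries of a group were grown separately, so p-values cover the variation between these libraries, which could be technical. RCC2 had 980, 1117 and 1045 counts in siRCC2 replicates 1 to 3, against 3998, 3598 and 3702 counts in siCtrl replicates 1 to 3, which is 3.4-fold lower in siRCC2 after scaling to library size.

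Cells keep free zinc very low. ZIP proteins carry zinc into the cytosol from outside or from organelles, ZNT proteins carry it out of the cytosol, and metallothioneins bind it through clusters of cysteines. MTF1 is the zinc sensor: on binding zinc it attaches to short metal response elements in DNA and switches on metallothionein genes and the exporter gene SLC30A1. Normal prostate epithelium accumulates more zinc than most tissues, and prostate tumours are known to lose it.

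Because MTF1 acts through metal response elements, the 250 bases before the start site of 4 genes are printed to show where the core of that element occurs. MT2A and MT1X are metallothioneins that DU145 cells expressed, MT1H is a metallothionein that was listed at 0 in each library, and SLC30A1 encodes the zinc exporter of the plasma membrane. Sequences are from RefSeq on GRCh38.p14, 5′ to 3′ on the gene's strand, and capitals mark each match to TGCACNC or TGCGCNC, the core of the element, on either strand. These forms cannot match at the same place on 1 strand, while matches on opposite strands were allowed to overlap. RefSeq and the count tables place some starts differently, and the MT2A window and the end of the MT1X window lie inside the gene spans of the files.
MT2A (chr16:56608334-56608583, plus strand): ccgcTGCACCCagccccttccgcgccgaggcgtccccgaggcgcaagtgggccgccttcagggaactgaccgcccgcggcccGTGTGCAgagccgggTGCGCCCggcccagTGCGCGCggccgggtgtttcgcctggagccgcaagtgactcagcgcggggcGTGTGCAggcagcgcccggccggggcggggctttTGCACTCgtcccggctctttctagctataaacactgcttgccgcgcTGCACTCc
MT1X (chr16:56682220-56682469, plus strand): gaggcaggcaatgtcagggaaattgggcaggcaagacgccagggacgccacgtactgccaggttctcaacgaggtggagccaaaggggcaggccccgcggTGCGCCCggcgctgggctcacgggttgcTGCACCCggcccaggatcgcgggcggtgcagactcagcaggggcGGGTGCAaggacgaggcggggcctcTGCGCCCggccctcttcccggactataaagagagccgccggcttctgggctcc
MT1H (chr16:56669564-56669813, plus strand): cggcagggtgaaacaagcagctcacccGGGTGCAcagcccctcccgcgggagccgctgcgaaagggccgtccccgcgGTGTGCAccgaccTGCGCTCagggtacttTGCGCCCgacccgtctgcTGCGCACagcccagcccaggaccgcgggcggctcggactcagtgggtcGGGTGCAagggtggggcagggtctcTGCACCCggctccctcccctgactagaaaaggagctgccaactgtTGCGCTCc
SLC30A1 (chr1:211579162-211579411, minus strand): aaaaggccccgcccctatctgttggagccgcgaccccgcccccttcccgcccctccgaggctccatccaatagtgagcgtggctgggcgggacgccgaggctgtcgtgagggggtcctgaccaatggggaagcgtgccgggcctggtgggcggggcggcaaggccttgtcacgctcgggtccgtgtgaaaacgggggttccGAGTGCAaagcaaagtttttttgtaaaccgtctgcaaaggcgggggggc

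The promoter table held 27 of the 36 genes, some with more than 1 start site, which gave 36 promoters. Each of the 5 metallothionein promoters in it (MT1B, MT1H, MT1X, MT2A and MT4) held at least 3 matches. Of all 35116 promoters of the same length 24.8% held at least 1 match and 1.58% at least 3. MT1H had 8 matches, MT2A 7, MT1X 4, and MT1B and MT4 had 3 each. Matches were found in 6 of 11 SLC30A promoters and in 5 of 19 SLC39A promoters, with no SLC39A promoter holding more than 1. SLC30A1 had its match 49 bases before the start site, and SLC30A2, an exporter into secretory vesicles, had 3. The MTF1 promoter had 0. A match describes these letters and does not show that MTF1 binds there. MT1A, MT1E, MT1F, MT1G, MT1M, MT3, SLC30A8, SLC39A4 and SLC39A14 were not in the table.

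Of the 36 genes, 25 had enough reads to be tested. With RCC2 siRNA 4 of the 25 were higher at an adjusted p under 0.05, 7 were lower and 14 did not pass. The share called, 44%, was near the 41.8% of all 16536 genes tested in this comparison, with 20.7% of all genes called higher and 21.1% lower, so the number of calls does not set these genes apart. The median log2 fold change of the 25 was -0.03, against -0.02 over all genes, and the median size of the change without its sign was 0.27, against 0.40 over all genes. The values of siRCC2 and siCtrl did not overlap in 14 of the 25, 7 higher and 7 lower, where 55.4% of all genes tested showed no overlap. In bulk RNA, fewer cells that express a gene and less RNA per cell cannot be told apart.

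**Figure D1:**
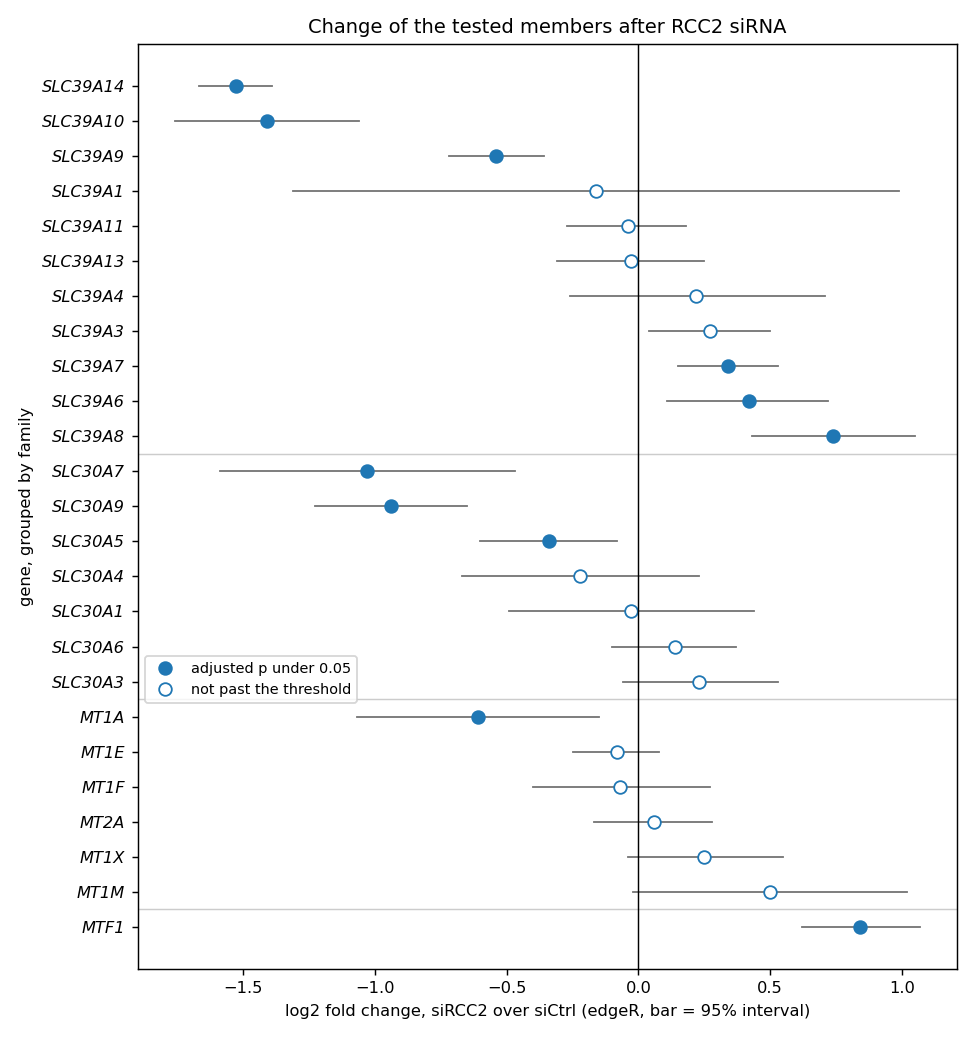
Log2 fold change of the 25 tested genes, siRCC2 over siCtrl, by edgeR, with bars for the 95% interval and filled points for an adjusted p under 0.05 (n = 3 libraries each). SLC39A14 (-1.53) and SLC39A10 (-1.41) lie farthest to the left, and MTF1 (0.84) and SLC39A8 (0.74) farthest to the right.

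The libraries had 17377191 to 19895431 counts in all, and levels are given in CPM, the counts scaled to library size by TMM. The cells had the epithelial markers EPCAM, KRT8, KRT18, CDH1 and KRT19 (at least 162 counts each in every library). Of the luminal prostate markers reported, KLK2 was listed at 0, KLK3 had at most 1 count and TMPRSS2 at most 3. Of the leukocyte markers reported, CD3E was listed at 0, PTPRC had at most 1 count and CD14 had 36 to 77. The 4 endothelial markers had at most 13 counts, and of 5 fibroblast markers COL1A1 had 129 to 256, COL1A2 21 to 39 and the others at most 15. siRCC2 replicate 1 stood apart from the other siRCC2 libraries in a way that went with transcript length. Relative to siRCC2 replicates 2 and 3 its median log2 level was 0.14 for the shortest and -0.23 for the longest of 5 equal bins of genes by transcript length, while siCtrl replicate 1 against the other siCtrl libraries gave 0.03 and -0.02. siRCC2 replicate 3 against replicates 1 and 2 went the other way, at -0.11 in the shortest bin and 0.16 in the longest. siRCC2 replicate 2 against replicates 1 and 3 gave -0.02 and 0.08. These comparisons share libraries, so they are not independent. The median log2 fold change of all genes also went with transcript length, at 0.08 in the shortest bin and -0.14 in the longest. Log2 fold changes without siRCC2 replicate 1, or with this trend removed as an offset, are given for several genes that these alternatives moved.

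Among the ZIP genes at the cell surface, SLC39A14 and SLC39A10 fell and SLC39A8 and SLC39A6 rose. Of the 11 SLC39A genes tested, 3 rose, 3 fell and 5 did not pass. The share called was 54.5%, against 41.8% of all genes tested. SLC39A14 encodes an importer of zinc, iron and manganese that is induced by interleukin 6 in liver. It had 126, 120 and 121 CPM in siRCC2 replicates 1 to 3, against 345, 361 and 350 CPM in siCtrl replicates 1 to 3. All siRCC2 libraries lay far below all siCtrl libraries, and the spread within each group was small. The mean was 122 ± 3.04 CPM in siRCC2 and 352 ± 8.32 CPM in siCtrl (SD, n = 3 libraries each), and edgeR put the log2 fold change at -1.53 ± 0.06 (SE, adjusted p = 2.00e-05). The gene lies at chromosome 8, 22367249 to 22434129, plus strand of GRCh38, and its log2 fold change stayed between -1.60 and -1.47 over 15 alternative analyses.

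SLC39A10 encodes a plasma membrane importer that forms a complex with the SLC39A6 protein. SLC39A10 had 9.49, 13.2 and 13.5 CPM in siRCC2, against 31.7, 33.5 and 31.1 CPM in siCtrl. The groups did not overlap, and siRCC2 replicate 1 was the lowest library. The log2 fold change of SLC39A10 was -1.41 ± 0.15 (edgeR adjusted p = 4.95e-04), and without siRCC2 replicate 1 its log2 fold change was -1.28. Its partner SLC39A6, which oestrogen induces in breast cancer cells, moved the other way. SLC39A6 had 219, 286 and 317 CPM in siRCC2, against 209, 199 and 209 CPM in siCtrl. The siRCC2 libraries were all higher, replicate 1 by little. The log2 fold change of SLC39A6 was 0.42 ± 0.13 (edgeR adjusted p = 0.0381). This call was lost without siRCC2 replicate 2 or 3 or any 1 of the siCtrl libraries (adjusted p from 0.0825 to 0.112) with total count scaling (0.0907) and when all genes with at least 1 read were kept (0.0548), and without siRCC2 replicate 1 it was 0.54 (adjusted p = 9.03e-04).

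SLC39A8 encodes an importer of manganese, zinc and iron. SLC39A8 had 74.8, 81.0 and 87.3 CPM in siRCC2, against 39.4, 52.9 and 53.3 CPM in siCtrl. Every siRCC2 library was above every siCtrl library. SLC39A8 rose by 0.74 ± 0.13 on the log2 scale (edgeR adjusted p = 0.00445), higher in 3 of 3 libraries. SLC39A8 and SLC39A14 are close relatives that carry the same metals, and their log2 fold changes had opposite signs (0.74 and -1.53). The non-coding row AC098487.1, which overlaps SLC39A8 on the same strand, rose by 0.83 ± 0.17 (edgeR adjusted p = 0.00680) at 5.96 CPM in siRCC2 and 3.34 CPM in siCtrl.

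Other surface importers did not pass the threshold. SLC39A3 had 78.5, 70.1 and 63.7 CPM in siRCC2, against 61.7, 58.0 and 56.5 CPM in siCtrl. Its groups did not overlap, at a log2 fold change of 0.27 with a 95% interval of 0.04 to 0.50 (edgeR adjusted p = 0.0609), and it was called without siRCC2 replicate 3 (adjusted p = 0.0268). SLC39A4, the intestinal importer mutated in acrodermatitis enteropathica, had 11.8, 9.74 and 9.28 CPM in siRCC2, against 11.0, 6.57 and 8.76 CPM in siCtrl. Its groups overlapped (0.22, interval -0.26 to 0.71), and the value was 0.10 without siRCC2 replicate 1.

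SLC39A1, described as the main zinc importer of prostate cells, differed widely among libraries of the same group. SLC39A1 had 320, 103 and 205 CPM in siRCC2, against 388, 169 and 145 CPM in siCtrl. The groups overlapped widely, and libraries of 1 group differed by more than the groups did. The log2 fold change was -0.16, with an interval of -1.31 to 0.99 (edgeR adjusted p = 0.817), and leaving out single libraries moved it between -0.62 and 0.42. Of the 50-base stretches of its longest transcript 71.3% also occur in AL358472.7, a readthrough transcript of the same strand in GENCODE 29 for which the files used here have no row. Whether reads were shared between these transcripts was not tested. The neighbour CREB3L4, which overlaps SLC39A1 on the opposite strand, had 15.4 ± 1.74 CPM in siRCC2 and 17.1 ± 1.62 CPM in siCtrl.

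ZIP proteins of organelles release zinc into the cytosol. SLC39A7, the ZIP of the endoplasmic reticulum, had 204, 191 and 186 CPM in siRCC2, against 147, 168 and 145 CPM in siCtrl. All siRCC2 libraries were higher. SLC39A7 rose by 0.34 ± 0.08 (edgeR adjusted p = 0.0147), a call lost without siRCC2 replicate 2 (adjusted p = 0.0568), siCtrl replicate 1 (0.0614) or siCtrl replicate 3 (0.0614). SLC39A9, found in the Golgi, had 78.7, 91.5 and 85.9 CPM in siRCC2, against 123, 124 and 125 CPM in siCtrl. Its groups were apart, and the siCtrl libraries were almost equal. SLC39A9 fell, at a log2 fold change of -0.54 ± 0.08 (edgeR adjusted p = 0.00158). ERH, which overlaps it on the opposite strand, rose by 0.57 ± 0.07 (edgeR adjusted p = 0.00105), and whether the counting used strand is not given in the sources used here. SLC39A13, a ZIP of Golgi and vesicles needed in connective tissue, had 45.8, 39.9 and 34.6 CPM in siRCC2, against 43.1, 38.3 and 41.5 CPM in siCtrl. Its values overlapped (-0.03, interval -0.31 to 0.25), with the lowest and the highest library both in siRCC2. SLC39A11, whose protein is found in Golgi and nucleus, had 20.0, 20.1 and 18.6 CPM in siRCC2, against 18.9, 20.9 and 20.7 CPM in siCtrl. It overlapped too (-0.04, interval -0.27 to 0.18).

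Levels per kilobase of the longest transcript put these changes on 1 scale. SLC39A14 had 26.3 CPM per kilobase in siRCC2 and 75.8 in siCtrl, so that in siCtrl it came next to SLC39A1 (76.9 in siRCC2, 85.9 in siCtrl). SLC39A7 had 80.4 in siRCC2 and 63.6 in siCtrl, and SLC39A6 had 77.3 in siRCC2 and 58.0 in siCtrl. Below these were SLC39A3 (24.1 in siRCC2, 20.0 in siCtrl), SLC39A8 (20.1 in siRCC2, 12.0 in siCtrl) and SLC39A9 (16.4 in siRCC2, 23.9 in siCtrl). SLC39A10 was among the lowest of those tested, at 2.22 in siRCC2 and 5.90 in siCtrl, and the order of SLC39A1 among its neighbours is uncertain because of its spread.

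**Figure D2:**
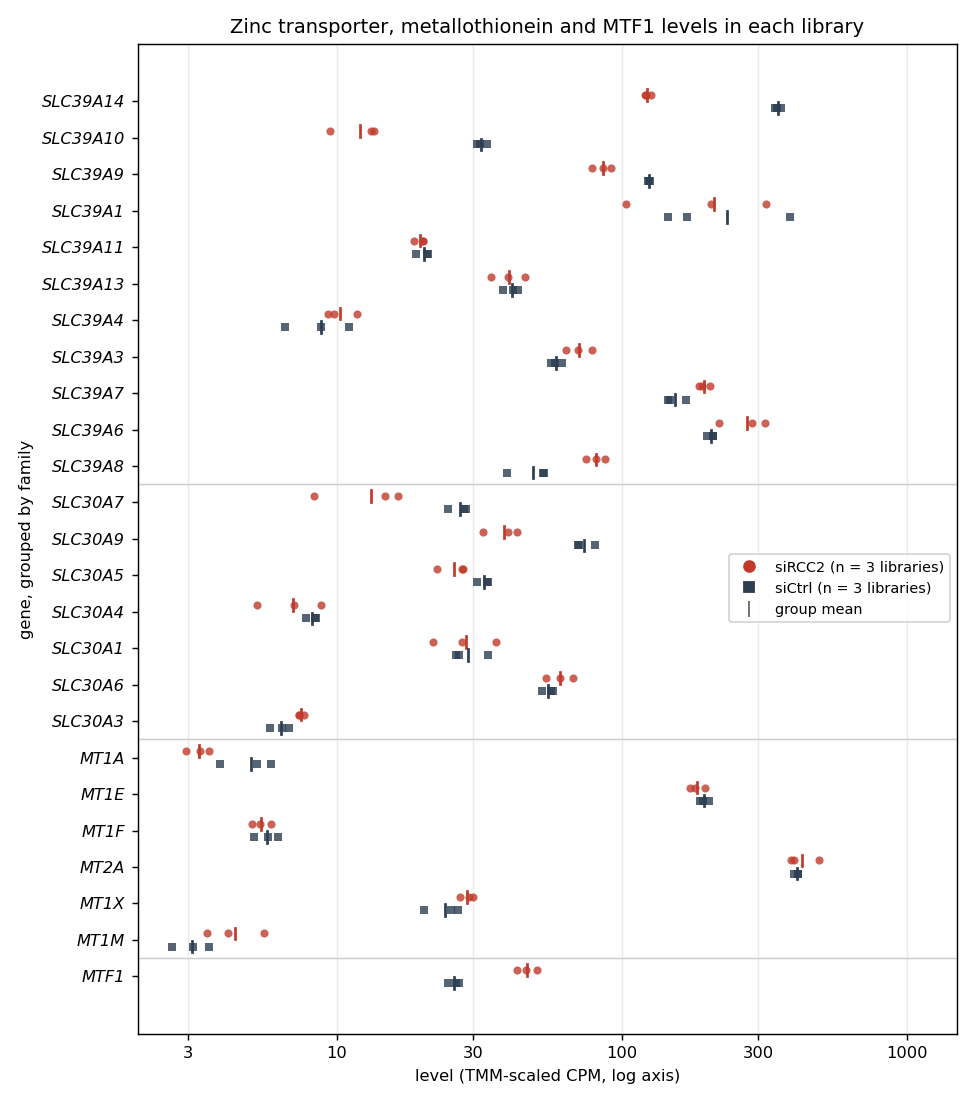
TMM-scaled CPM of the 25 tested genes in each library on a log axis, with red circles for siRCC2, dark squares for siCtrl and a vertical tick for the group mean (n = 3 libraries each). The groups are apart for SLC39A14, SLC39A10 and MTF1, and libraries of both groups are widely spread for SLC39A1.

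Of the 7 SLC30A genes tested, 3 fell, 4 did not pass and 0 rose (0 at an unadjusted p under 0.05 in edgeR, and 0 by DESeq2 or limma-voom). The share called, 42.9%, was near the 41.8% of all genes tested. The genes that fell act on organelles, but so do SLC30A6, SLC30A4 and SLC30A3, which did not pass. SLC30A7 encodes a Golgi transporter that supplies zinc to enzymes of the secretory pathway. SLC30A7 had 8.28, 14.7 and 16.4 CPM in siRCC2, against 28.3, 24.5 and 27.9 CPM in siCtrl. The groups did not overlap, and siRCC2 replicate 1 was far below the other 2 siRCC2 libraries. The log2 fold change of SLC30A7 was -1.03 ± 0.24 (edgeR adjusted p = 0.0125), -0.80 without siRCC2 replicate 1 (adjusted p = 0.00175) and -0.89 with the length trend removed (adjusted p = 0.00480). Its longest transcript has 7898 bases.

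SLC30A9, a zinc exporter of mitochondria, had 32.6, 39.8 and 42.8 CPM in siRCC2, against 80.5, 69.8 and 70.7 CPM in siCtrl. Every siRCC2 library lay well below every siCtrl library. SLC30A9 fell, at a log2 fold change of -0.94 ± 0.12 (edgeR adjusted p = 0.00108), and its value was -0.85 without siRCC2 replicate 1. SLC30A5 and SLC30A6 encode the subunits of a zinc transporter of the early secretory pathway. SLC30A5 had 22.5, 27.6 and 27.4 CPM in siRCC2, against 33.5, 30.9 and 33.9 CPM in siCtrl. Its groups were apart at -0.34 ± 0.11 (edgeR adjusted p = 0.0427), a call lost without siRCC2 replicate 2 or any 1 of the siCtrl libraries (adjusted p from 0.0654 to 0.127), and when all genes with at least 1 read were kept (0.0508). Without siRCC2 replicate 1 the value of SLC30A5 was -0.27 (adjusted p = 0.0420). SLC30A6 had 54.0, 60.7 and 67.1 CPM in siRCC2, against 57.1, 52.2 and 56.2 CPM in siCtrl. SLC30A6 overlapped between groups (0.14, interval -0.10 to 0.37), and the difference between the changes of the 2 subunits was not tested.

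SLC30A1, the plasma membrane exporter and a classical MTF1 target, did not pass. SLC30A1 had 21.8, 27.4 and 36.1 CPM in siRCC2, against 33.9, 26.1 and 26.7 CPM in siCtrl. The groups overlapped, with the lowest and the highest library both in siRCC2 (log2 fold change -0.03, interval -0.49 to 0.44, edgeR adjusted p = 0.928). Its longest transcript has 5474 bases, and the value was 0.12 without siRCC2 replicate 1. SLC30A4, of endosomes and lysosomes, had 5.26, 8.76 and 7.08 CPM in siRCC2, against 8.44, 7.81 and 8.35 CPM in siCtrl. It overlapped between groups (-0.22, interval -0.67 to 0.23), and the value was -0.06 without siRCC2 replicate 1 and -0.08 with the length trend removed. SLC30A3, which fills synaptic vesicles in neurons, had 7.68, 7.37 and 7.34 CPM in siRCC2, against 5.81, 6.41 and 6.80 CPM in siCtrl. Its groups were apart, but it did not pass (0.23, interval -0.06 to 0.53, edgeR adjusted p = 0.169).

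**Figure D3:**
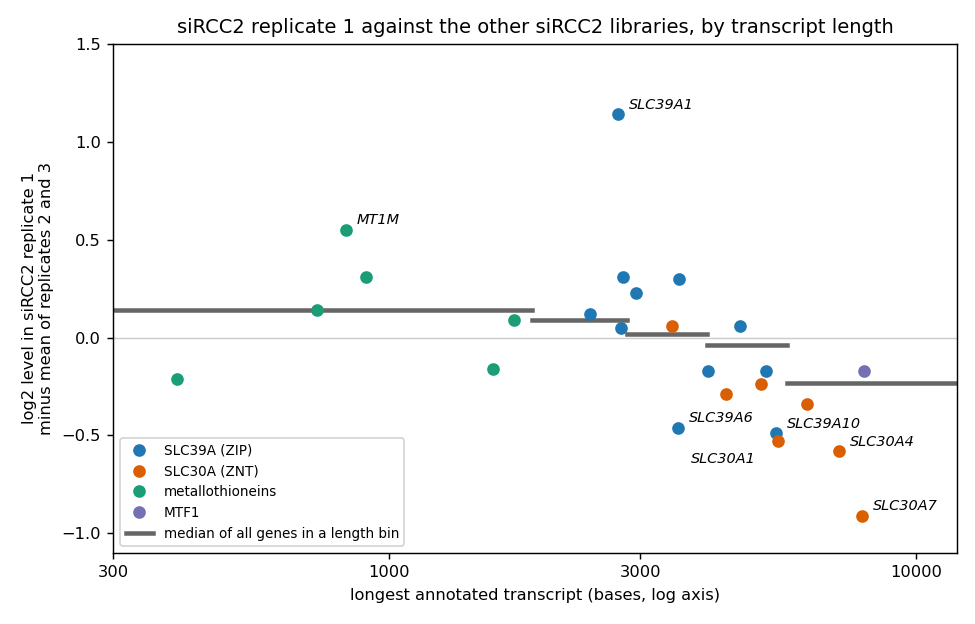
Log2 level in siRCC2 replicate 1 minus the mean of siRCC2 replicates 2 and 3 for the 25 tested genes, against the length of the longest annotated transcript in bases on a log axis, with grey bars for the median of all genes with a mean of at least 1 CPM in 5 equal bins by length. SLC30A7 is the lowest point (-0.91) and SLC39A1 the highest (1.14), and the grey bars go down from 0.14 to -0.23.

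MTF1 rose, and the summed metallothioneins overlapped between the groups. MTF1 (chromosome 1, 37809567 to 37859620, minus strand) had 42.7, 46.0 and 50.2 CPM in siRCC2, against 26.1, 26.8 and 24.6 CPM in siCtrl. All siRCC2 libraries were far above all siCtrl libraries. The mean was 46.3 ± 3.72 CPM in siRCC2 and 25.8 ± 1.10 CPM in siCtrl, with a log2 fold change at 0.84 ± 0.09 (edgeR adjusted p = 6.34e-04) that stayed between 0.78 and 1.01 over the alternatives. The 11 metallothionein rows summed to 729, 602 and 624 CPM in siRCC2 and to 657, 625 and 643 CPM in siCtrl. The groups overlapped, with the highest and the lowest sum both in siRCC2, and the log2 ratio of the sums was 0.02. The sum does not depend on how reads were split among these 11 rows, but it leaves out reads given to MT1L and similar rows. With the MT pseudogene rows added, the log2 ratio of the sums was 0.03 and the groups overlapped. Per kilobase of transcript MT2A had 473 CPM in siRCC2 and 454 in siCtrl, against 5.81 in siRCC2 and 3.24 in siCtrl for MTF1.

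The metallothioneins lie side by side on chromosome 16, from MT4 at 56565049 to MT1X, which ends at 56684196. MT2A and MT1E made up 93.1% to 94.8% of the family's counts in each library. MT2A, the most abundant, had 491, 390 and 401 CPM in siRCC2, against 414, 400 and 415 CPM in siCtrl. siRCC2 replicate 1 was high and the other libraries were alike (log2 fold change 0.06, interval -0.17 to 0.28, edgeR adjusted p = 0.647). Without siRCC2 replicate 1 the value of MT2A was -0.07, and with the length trend removed -0.02. MT1E had 195, 173 and 180 CPM in siRCC2, against 201, 192 and 188 CPM in siCtrl. The groups overlapped, and the interval of the change was -0.25 to 0.08 (edgeR adjusted p = 0.381). MT1X had 29.9, 26.9 and 29.1 CPM in siRCC2, against 26.6, 20.2 and 25.2 CPM in siCtrl. Its groups were just apart, but it did not pass (0.25, interval -0.04 to 0.55, edgeR adjusted p = 0.148).

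The minor metallothioneins had few reads. MT1F had 5.02, 5.36 and 5.87 CPM in siRCC2, against 6.20, 5.12 and 5.72 CPM in siCtrl, and overlapped. MT1M had 5.56, 3.50 and 4.14 CPM in siRCC2, against 3.13, 2.64 and 3.56 CPM in siCtrl. The MT1M groups overlapped narrowly (0.50, interval -0.02 to 1.02), and the value was 0.28 without siRCC2 replicate 1. MT1A was the metallothionein called, with 2.96, 3.30 and 3.57 CPM in siRCC2, against 5.86, 3.88 and 5.26 CPM in siCtrl. MT1A had a log2 fold change of -0.61 ± 0.20 (edgeR adjusted p = 0.0416), a call lost by DESeq2 (adjusted p = 0.0724), by limma-voom (0.0521), and without any 1 of the siRCC2 libraries or siCtrl replicate 1 or 3 (0.0599 to 0.136). Its row in the files spans 111611 bases, over MT1B, MT1F, MT1G, MT1H and MT1X and into NUP93, while GENCODE 29 ends the gene at 56640087, so its count is uncertain. Of the 6 tested metallothioneins 1 was lower, 5 did not pass and 0 were higher (0 at an unadjusted p under 0.05 in edgeR, and 0 by DESeq2 or limma-voom). The share called was 16.7%, against 41.8% of all genes tested.

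**Figure D4:**
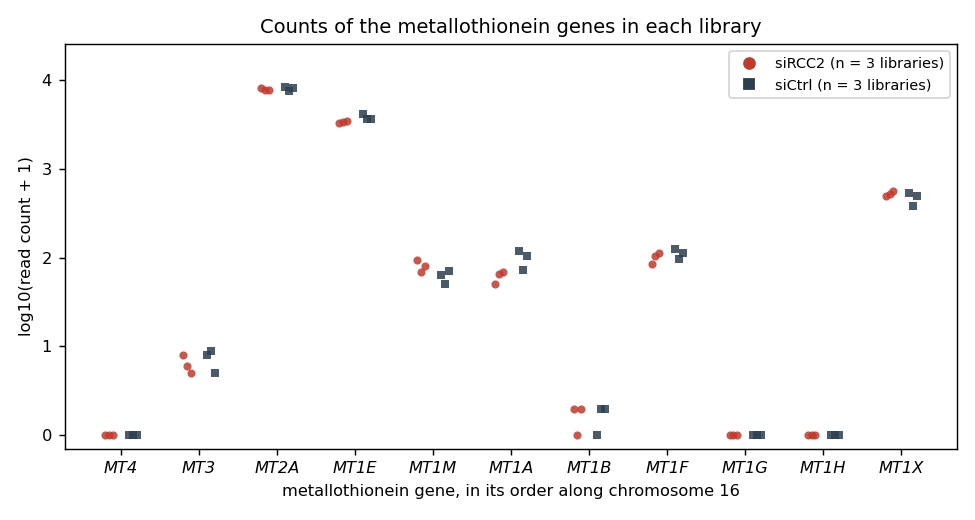
Read counts of the 11 metallothionein genes in each library as log10(count + 1), in their order along chromosome 16, with red circles for siRCC2 and dark squares for siCtrl (n = 3 libraries each). MT2A and MT1E are highest, MT4, MT1G and MT1H are at 0 in every library, and the groups lie together at most genes.

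The other 11 genes had too few reads for the main test, with at most 8 counts in any library. MT4, MT1G, MT1H, SLC39A12, a brain importer, and SLC30A8, the transporter of insulin granules, were listed at 0 in all 6 libraries, where 3 counts correspond to 0.149 to 0.181 CPM and set the upper limit, for counting error alone. MT1H was thus at 0 with 8 promoter matches, where MT2A with 7 was the most abundant of the family. MT3, MT1B, SLC39A2, SLC39A5 and the manganese exporter gene SLC30A10 had 1 to 35 counts over all libraries. SLC30A2 had 3, 5 and 4 counts in siRCC2, against 0 in each siCtrl library. When all genes with at least 1 read were kept, SLC30A2 passed as higher (edgeR adjusted p = 0.0282), and MT3, MT1B, SLC39A2, SLC39A5 and SLC30A10 did not. SLC30A2 entered that set only through its siRCC2 reads, so this p-value is not taken as support for a change. The SLC30A2 counts are also too low for a fold change.

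Further metal genes were counted by lists. Over all genes tested 20.7% were called higher and 21.1% lower, so calls in both directions were common. Whether any list differs from these shares was not tested. Of 10 other zinc handling genes tested, 1 rose, 3 fell and 6 did not pass (median log2 fold change -0.25). TMEM163, a zinc efflux protein, rose (0.94 ± 0.17, edgeR adjusted p = 0.00464), and SLC11A2, an importer of iron and other metals, fell (-0.63 ± 0.09). CBWD5 (-0.73 ± 0.17) and CBWD6 (-0.40 ± 0.12), which encode GTPases that hand zinc to a target enzyme, fell too. The CBWD genes are near copies of each other, and the 5 rows summed to 61.9, 73.7 and 70.1 CPM in siRCC2, against 89.1, 94.1 and 91.2 CPM in siCtrl. These sums did not overlap.

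Genes described as MTF1 regulated moved both ways, with 2 higher, 2 lower and 3 not passing of 7 tested (median 0.01). The selenoprotein genes SELENOW (1.40 ± 0.11) and SELENOH (-1.22 ± 0.12) went in opposite directions, the growth factor gene PGF fell (-1.06 ± 0.16), and CEBPA rose (0.47 ± 0.13). The number higher was 1 without siRCC2 replicate 2 or 3 or siCtrl replicate 1 or 2, and with all genes of at least 1 read kept. Of 8 tested genes for zinc enzymes of the secretory pathway and their helpers, which Golgi ZNT proteins are known to serve, 1 rose, 4 fell and 3 did not pass (median -0.57). The carbonic anhydrase gene CA12 fell to 1.61 ± 0.449 CPM in siRCC2, against 8.45 ± 0.268 CPM in siCtrl (-2.37 ± 0.21, edgeR adjusted p = 2.39e-04). PIGO (-0.84 ± 0.07) and ENPP1 (-0.93 ± 0.12) fell, and ENPP2, which encodes autotaxin, rose (1.30 ± 0.14).

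Of 17 copper genes 3 rose, 6 fell and 8 did not pass (median -0.17). The importer SLC31A1 (-0.67 ± 0.06), COMMD1 (-1.20 ± 0.18) and STEAP3 (-0.63 ± 0.10) fell, and CUTC rose (0.61 ± 0.09). Of 13 iron and manganese genes 6 rose, 3 fell and 4 did not pass (median 0.30). NCOA4, the receptor for ferritin breakdown, rose to 323 ± 3.64 CPM in siRCC2, against 161 ± 5.19 CPM in siCtrl (1.01 ± 0.06, edgeR adjusted p = 5.73e-05). The ferritin gene FTL rose (0.87 ± 0.10), and the iron regulatory gene ACO1 (-0.85 ± 0.06) and SLC11A2 fell. The number of iron and manganese genes higher was 3 without siRCC2 replicate 2, siCtrl replicate 2 or siCtrl replicate 3. Of 10 heavy metal stress genes 4 rose, 2 fell and 4 did not pass (median 0.23). Both lower calls were lost without siRCC2 replicate 2 or any 1 of the siCtrl libraries, and 1 was left by DESeq2 and with the length trend removed. HMOX1, haem oxygenase (0.60 ± 0.08), SRXN1 (0.27 ± 0.07) and the heat shock genes HSPA1B (0.92 ± 0.11) and HSPA1A (1.41 ± 0.32) rose, though the 2 heat shock genes are nearly identical and their split is uncertain.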

How the data were processed

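Per the labels' protocols, total RNA came from the RNAprep Pure Micro Kit and libraries from an MGIEasy kit. Bowtie2, RSEM and DESeq2 were used with build GRCh38, per the submitters' processing notes, which give no versions. The authors deposited whole-number counts per gene, 1 table for each library, and strand handling is not given in the sources used here. RSEM shares reads among similar transcripts, which affects metallothioneins and overlapping genes.

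The genes and lists were chosen with earlier results of these data known. In R 4.3.3, edgeR 4.0.16 was run on the counts (filterByExpr, TMM scaling, glmQLFit and glmQLFTest) over 16536 genes, with Benjamini-Hochberg adjustment over all of them and calls at an adjusted p under 0.05. Positive log2 fold changes mean higher in siRCC2, SE is the log2 fold change over the square root of F, and intervals are 95%. DESeq2 1.42.0 and limma 3.58.1 (voom) were alternatives, as were other scalings and filters, a replicate block, leaving out each library and, added after the data were seen, an offset for transcript length. No pair of replicates agreed within counting noise (chi-square over its degrees of freedom, 9.56 to 31.9), so each counted as 1 sample. Transcript lengths and shared 50-base stretches came from GENCODE 29. The test was checked on simulated counts with known changes in a small share of the genes and no length trend. The list genes were matched by symbol or, for renamed genes, by gene ID. Every tested gene of the family is named with its values, as are up to 4 genes of each list with the smallest p. Figures were made with Python 3.11.15 and matplotlib 3.10.9. Some marker genes are not reported here.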

Additional observations from a re-analysis of the deposited data

How the results depend on the processing

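Of the 11 genes called among the zinc transporters, metallothioneins and MTF1, SLC39A14, SLC39A10, SLC39A9, SLC39A8, SLC30A7, SLC30A9 and MTF1 (7 genes) kept their call and direction under all 15 alternatives at an adjusted p under 0.05. The calls of SLC39A6, SLC39A7, SLC30A5 and MT1A (4 genes) were lost under at least 1, and 0 genes changed sign while called. At a threshold of 0.01, 2 genes were higher and 4 lower, against 2069 higher and 2048 lower of all genes. Leaving out 1 library gave 2 to 4 zinc genes higher and 5 to 6 lower. Over all genes it gave 2520 to 3666 higher and 2511 to 3899 lower, against 3423 and 3488 with every library. Calls were thus lost across all genes under several of these alternatives, and not only among the zinc genes. The log2 ratio of the metallothionein sums ranged from -0.07 without siRCC2 replicate 1 to 0.07 without siRCC2 replicate 2. With the replicate number as a block, 6295 of all genes were called in place of 6911, and 3 zinc genes were higher and 5 lower: SLC39A6 (adjusted p = 0.0513), SLC30A5 (0.0726) and MT1A (0.0754) were lost. The labels do not say that equal replicate numbers share a culture or a day, so the numbers were not taken as pairs. Correlations of their deviations were 0.059, -0.042 and 0.099 for equal numbers, and -0.119 to 0.062 for unequal numbers. All were small, and they cannot show whether a culture or day was shared. Other scalings moved the median of all genes by -0.068 to 0.014 (log2). Of 192 counts of the 6 metal gene lists under the alternatives, 20 moved by over 1.5 times, 16 of them at the threshold of 0.01 or with a library left out. With 3 libraries a group, genes of a few CPM such as MT1A and MT1M rest on 49 to 118 reads a library.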
